A study of Mus musculus with 6 samples.

Results

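The genes described here encode the cytosolic translation initiation factors (eIF) and elongation factors (eEF) of the mouse, together with the enzymes and binding proteins named after them. They were taken by symbol, as every listed gene whose name starts with Eif followed by a digit from 1 to 6, or with Eef1 or Eef2, leaving out the eIF2alpha kinases Eif2ak1 to Eif2ak4 and Eef1e1, a part of the synthetase complex. This gave 61 of 11866 listed genes, of which 60 are protein coding and 1, Eif3s6.ps2, is a processed pseudogene. By complex they fall into 3 subunits of eIF2, 5 of eIF2B, 14 of eIF3, 15 genes of the eIF4 group, 11 of the eEF group and 12 other initiation factors. The pseudogene stands by itself.

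RNA was measured by poly(A)-selected RNA-seq in HCC3-4, a tumour cell line from the liver of MYC transgenic mice. In 3 libraries (KD) the cells were stably transfected with a short hairpin RNA against Sf3b3, a subunit of the SF3b splicing complex, and in the other 3 (PLKO) with the control vector pLKO.1-TRC. All 6 libraries share the MYC transgenic origin and the culture conditions. No label names a second hairpin, a rescue or separate cultures. The tests therefore use a spread among libraries that may be technical, and effects of lower Sf3b3 cannot be told apart from other differences between the 2 cell populations.

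Translation starts when eIF2 brings the initiator tRNA to the small ribosomal subunit with eIF1, eIF1A, eIF3 and eIF5, and when eIF4F (the cap-binding protein eIF4E, the scaffold eIF4G and the helicase eIF4A) recruits the mRNA. eIF2B recharges eIF2 with GTP and is the step that the integrated stress response blocks. In elongation eEF1A delivers aminoacyl-tRNAs and eEF2 moves the ribosome along, and both are methylated or phosphorylated by dedicated enzymes. MYC is known to raise the transcription of several of these factors.

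Sf3b3 stood at 10.3, 9.56 and 13.9 FPKM (fragments per gene, corrected for its length and for sequencing depth) in KD 1, 2 and 3, against 22.6, 28.7 and 29.2 FPKM in PLKO 1, 2 and 3. The groups did not overlap, and Sf3b3 fell, with a log2 fold change of -1.26 (SE 0.23, adjusted p = 0.037 by limma). By exact permutation (2-sided) its p was 0.1, which is the least possible with 3 libraries a group. Between 15140441 and 17566101 reads fell on listed genes per library. Of 13 hepatocyte markers 5 were listed (Alb and Hnf4a were not), with summed levels of 80.9 to 113 FPKM in KD and 75.5 to 111 FPKM in PLKO, most of it Krt8. Krt18 was higher in KD without overlap, at 9.11 ± 0.619 FPKM against 5.95 ± 0.672 FPKM (SD, n = 3 each), but was not called (limma adjusted p = 0.10, and 0.069 with the block). Afp, under the level tested, was also higher without overlap (means of 1.40 and 0.389 FPKM). Apoe, Foxa1 and Krt8 overlapped between groups. Of 6 leukocyte markers Cd68 and Cd79a were listed and Ptprc was not, with summed levels of 46.9 to 98.9 FPKM in KD and 10.1 to 42.2 FPKM in PLKO, and Cd79a was called higher (limma adjusted p = 0.047). Cd68 stood at 69.7 ± 25.3 FPKM in KD and 23.6 ± 16.8 FPKM in PLKO (SD, n = 3 each) and was called higher with the replicate number as a block (limma adjusted p = 0.0018). Of 7 fibroblast markers 6 were listed, with summed levels of 294 to 646 FPKM in KD and 578 to 742 FPKM in PLKO, most of it Vim. Among them Col3a1 stood at 19.8 ± 4.93 FPKM in KD and 47.0 ± 14.2 FPKM in PLKO, and Pdgfrb at 32.5 ± 8.31 and 63.0 ± 14.1 FPKM (SD, n = 3 each). Neither overlapped between groups, and both were called lower with the block only (limma adjusted p = 0.0045 and 0.012, against 0.051 and 0.064 without it). The part of these markers in the results was not tested, and fewer cells of a type and less RNA per cell cannot be told apart.

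Most of the general machinery did not pass the test, whereas 2 scaffold genes and 2 modifying enzymes fell in KD. Of the 61 genes 59 had a mean of at least 1 FPKM and were tested. Eef1akmt1, Eef1akmt2, Eif4g2 and Eif4g3 were called (limma adjusted p under 0.05 over all 10770 tested genes), all lower in KD and none higher. That is 4 of 59, where 2.92% of all tested genes were called, 1.79% lower and 1.12% higher. Voom on reads recovered from the table also called 4 factors, all lower and 3 of them the same, beside 2.86% of all tested genes (1.66% lower and 1.2% higher). When KD 1, KD 2, PLKO 1 or PLKO 2 was left out, limma called 0 genes of the whole table. In these fits 15, 15, 18 and 14 of the 59 factors had an unadjusted p under 0.05. Over all 10770 tested genes the numbers were 1818, 1793, 2217 and 2315. In the fit with all 6 libraries 22 factors and 2977 of all tested genes had an unadjusted p under 0.05. Without KD 3 limma called 12 factors, all 4 among them, beside 1744 of all 10770 tested genes. Without PLKO 3 it called 7 factors, among them 2 of the 4, beside 801 of all 10770 tested genes. With the replicate number as a block, 16 of the 59 were called lower and 1 higher, beside 11.1% and 8.19% of all tested genes (19.3% in either direction). The values of the groups did not overlap for 19 factors lower in KD and 7 higher, where this held for 18.8% and 13.4% of all tested genes (32.1% together). The median log2 fold change was -0.17 over the 59 factors and -0.04 over all tested genes.

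**Figure D1:**
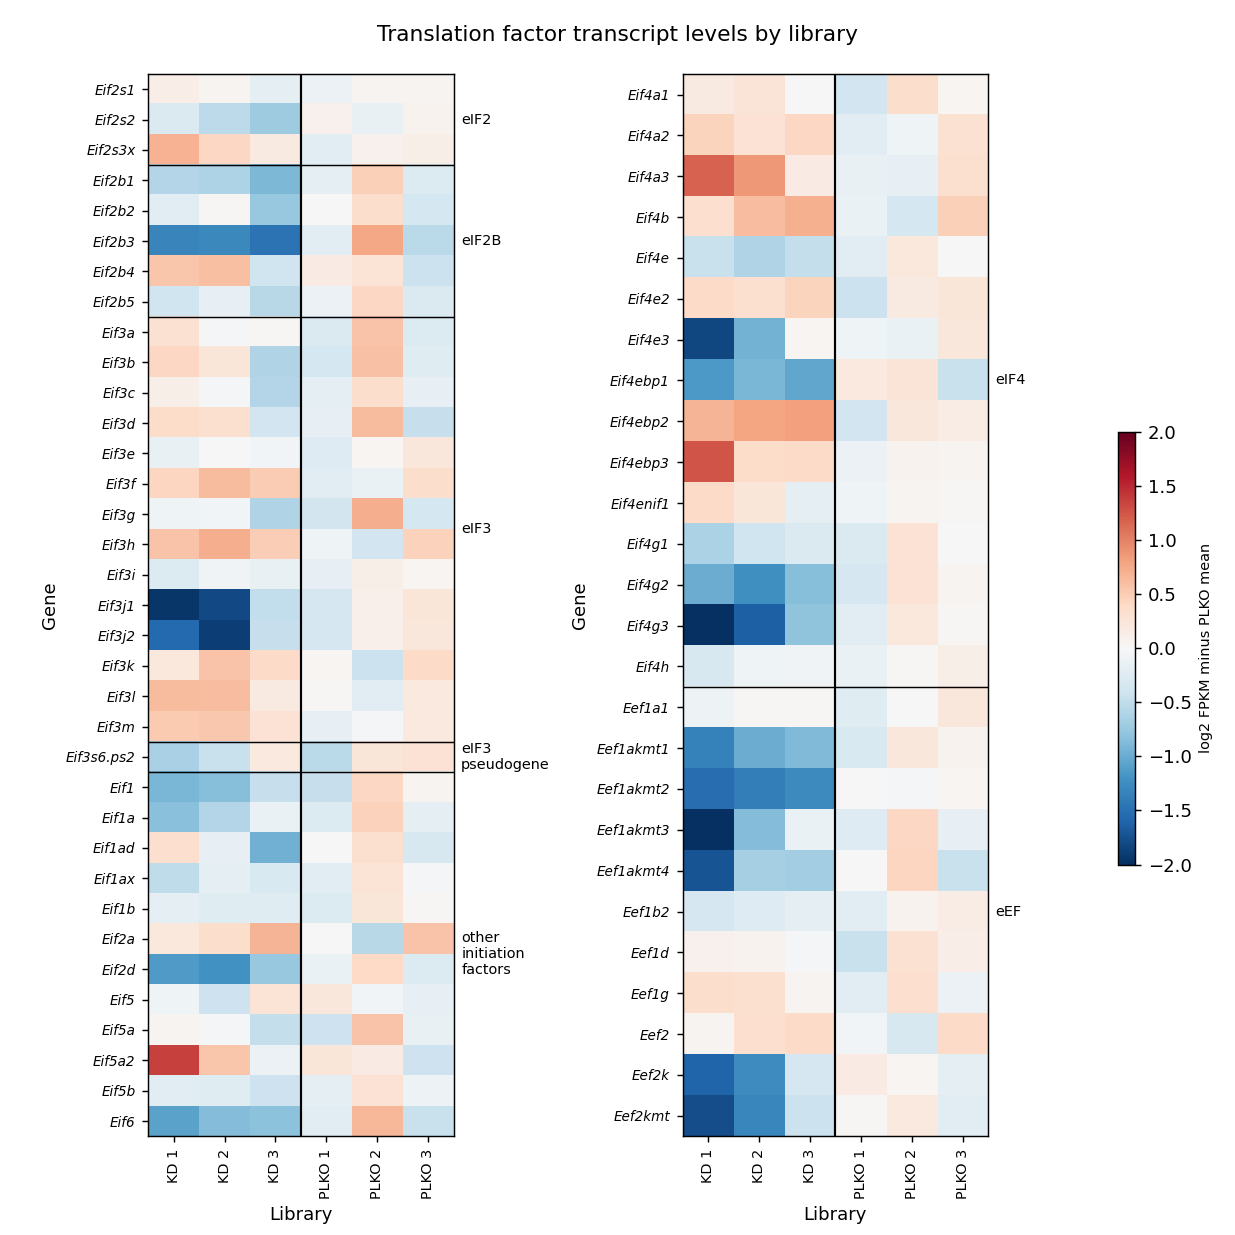
Level of each of the 61 genes (rows) in each library (columns, KD left of PLKO), as log2 FPKM minus the PLKO mean of that gene; colours end at 2 on either side. The darkest blue rows in KD are Eif3j1, Eif3j2, Eif2b3, Eif4g3 and the enzymes of the eEF group, most of them palest in KD 3.

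**Figure D2:**
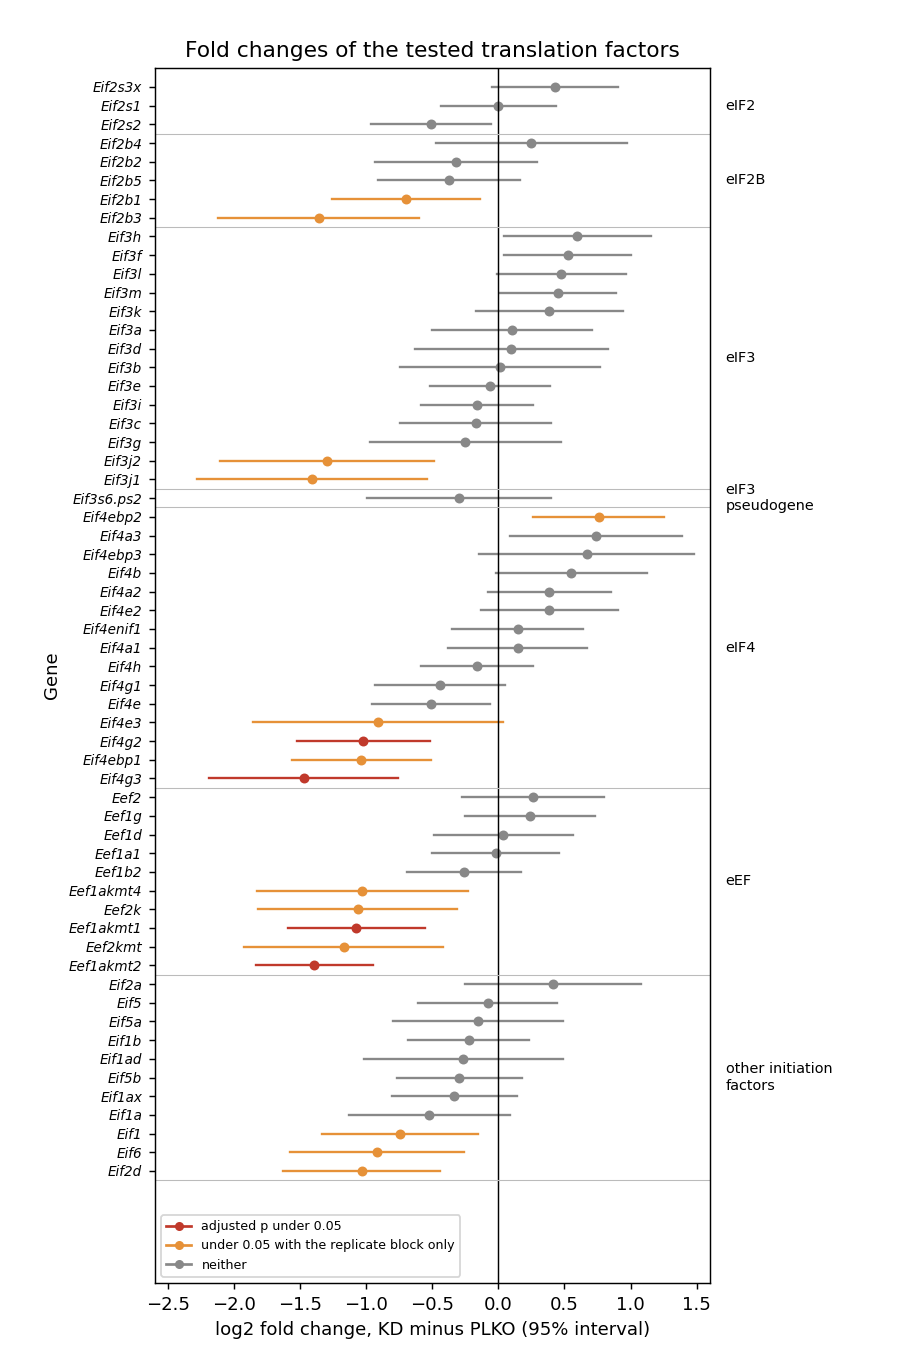
Log2 fold change (KD minus PLKO) of the 59 tested genes with the 95% limma interval, by complex. The 4 genes called without the block all lie to the left of 0, as do 12 of the 13 called with the block only, and Eif4ebp2 lies to the right.

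Among the 3 listed subunits of eIF2, none was called (limma adjusted p from 0.14 to 0.998, and at least 0.11 with the block). An unadjusted limma p under 0.05 was reached by 1 of them, beside 2977 of all 10770 tested genes. Eif2s1, the alpha subunit that the stress kinases phosphorylate, averaged 32.6 ± 3.75 FPKM in KD and 32.6 ± 2.21 FPKM in PLKO (SD, n = 3 each). Eif2s2, the beta subunit, had 34.1, 28.9 and 25.5 FPKM in KD libraries 1 to 3, against 44.2, 37.6 and 43.6 FPKM in PLKO. Its KD values all lay below its PLKO values, with a log2 fold change of -0.51 (SE 0.20, limma adjusted p = 0.14). Eif2s3x, the GTP-binding gamma subunit, lay the other way, at 68.6, 56.7 and 48.1 FPKM in KD and 36.9, 45.2 and 45.9 FPKM in PLKO (log2 fold change 0.43, limma adjusted p = 0.22). In this heterotrimer the beta and gamma subunits thus lay on opposite sides of 0, neither past the test.

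Among the eIF2B subunits 4 of 5 had fold changes below 0, and the median was -0.37 on the log2 scale. None was called over all genes (2 at an unadjusted limma p under 0.05, beside 2977 of all 10770 tested genes). Eif2b1 and Eif2b3 were called lower with the block. Eif2b3, the gamma subunit of the catalytic subcomplex, had 3.72, 3.81 and 3.35 FPKM in KD libraries 1 to 3. In PLKO it had 7.92, 15.9 and 6.36 FPKM, so the groups did not overlap but PLKO 2 stood well above the other 2 control libraries. Its log2 fold change was -1.36 (SE 0.34, limma adjusted p = 0.059, and 0.0067 with the block). Eif2b1, the regulatory alpha subunit, had 16.3, 15.8 and 13.1 FPKM in KD and 21.3, 33.7 and 20.1 FPKM in PLKO (log2 fold change -0.70, limma adjusted p = 0.12, and 0.047 with the block). Eif2b5, the catalytic epsilon subunit, had the highest level of the 5, with 44.3, 52.3 and 40.1 FPKM in KD and 54.3, 77.9 and 47.8 FPKM in PLKO. Those ranges overlapped (log2 fold change -0.37, limma adjusted p = 0.33). Eif2b4, the delta subunit, had 14.1, 14.6 and 7.28 FPKM in KD and 10.7, 11.6 and 7.14 FPKM in PLKO, with both libraries numbered 3 lowest in their group (log2 fold change 0.25, limma adjusted p = 0.64). Eif2b2, the beta subunit, had a log2 fold change of -0.32 (limma adjusted p = 0.46).

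eIF3, the largest initiation factor, had no subunit called over all genes among 14. An unadjusted limma p under 0.05 was reached by 5 of the 14, beside 2977 of all 10770 tested genes. The median fold change of eIF3 was 0.06 on the log2 scale, a value that was below 0 without KD 1, KD 2, PLKO 1 or PLKO 3. The 2 that stood apart were Eif3j1 and Eif3j2, copies of the loosely bound eIF3j subunit. Eif3j1, on chromosome 2 from 122028546 to 122056598, had 2.96, 3.25 and 8.12 FPKM in KD libraries 1 to 3 and 8.998, 12.2 and 13.4 FPKM in PLKO. KD 3 lay nearer to PLKO 1 than to the other KD libraries. Its log2 fold change was -1.41 (SE 0.38, limma adjusted p = 0.068, and 0.0055 with the block). Eif3j2 also had its highest KD value in KD 3, with 6.98, 5.60 and 14.9 FPKM in KD and 16.3, 22.05 and 24.1 FPKM in PLKO (-1.30, limma adjusted p = 0.070, and 0.0071 with the block). Eif3j1 and Eif3j2 are close copies that can share reads, so their values are not separate evidence.

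Without eIF3j, the 12 other eIF3 subunits had log2 fold changes from -0.25 to 0.60 and limma adjusted p from 0.15 to 0.98, 0 of them called with or without the block. In the spread between libraries they fell into 2 sets, grouped after their values were seen. Eif3f, Eif3h, Eif3k, Eif3l and Eif3m had log2 fold changes from 0.38 to 0.60. Eif3h, the highest of the eIF3 genes by level, had 390, 438 and 372 FPKM in KD and 248, 203 and 365 FPKM in PLKO (log2 fold change 0.60, SE 0.25, limma adjusted p = 0.16). Its lowest KD library lay just above PLKO 3, its highest control. Eif3f and Eif3m did not overlap either, at 124 ± 9.11 FPKM in KD and 87.3 ± 19.0 FPKM in PLKO for Eif3f, and at 85.0 ± 7.73 and 62.4 ± 7.73 FPKM for Eif3m (SD, n = 3 each). Eif3a, Eif3b, Eif3c, Eif3d, Eif3e, Eif3g and Eif3i, among them the scaffold subunits a, b and c, had log2 fold changes from -0.25 to 0.10, and their KD and PLKO values overlapped in each case. Without both libraries numbered 3, Eif3f, Eif3h and Eif3l were called higher (limma adjusted p = 0.047, 0.031 and 0.042), in a fit that called 11.9% of all tested genes higher. The pseudogene Eif3s6.ps2 rested on 25 to 53 reads per library and had a log2 fold change of -0.30 (limma adjusted p = 0.56).

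In the eIF4 group the calls fell on the scaffold proteins, and both were lost with median centring (limma adjusted p = 0.052 for Eif4g3 and 0.053 for Eif4g2). Eif4g3, which encodes eIF4G3 and lies on chromosome 4 from 137993022 to 138208508, had 3.05, 3.90 and 6.94 FPKM in KD libraries 1 to 3 and 10.3, 14.0 and 12.3 FPKM in PLKO. All KD values lay below all PLKO values, KD 3 the least far. Eif4g3 fell by 1.47 in log2 units (SE 0.32, limma adjusted p = 0.048, and 0.0042 with the block). Eif4g2, on chromosome 7 from 111067750 to 111083030, encodes a relative of eIF4G that lacks the eIF4E-binding part and serves cap-independent initiation. It had 61.2, 52.3 and 68.0 FPKM in KD and 96.4, 148 and 127 FPKM in PLKO, again without overlap, and fell by 1.02 (SE 0.22, limma adjusted p = 0.0497, and 0.013 with the block). Eif4g1, the main scaffold gene, had 107 ± 12.5 FPKM in KD and 147 ± 29.7 FPKM in PLKO (SD, n = 3 each), with a log2 fold change of -0.44 and a limma adjusted p of 0.22. Its KD values also lay below its PLKO values, but barely, with KD 3 at 118.288 FPKM and PLKO 1 at 118.294 FPKM. Of the summed FPKM of the 3 scaffold genes, Eif4g3 made up 1.93%, 2.36% and 3.59% in KD 1, 2 and 3 and 4.57%, 4.11% and 4.33% in PLKO 1, 2 and 3. Eif4g1 made up 59.3%, 66.1% and 61.2% in KD and 52.6%, 52.2% and 51.0% in PLKO, so neither share overlapped between groups.

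Proteins that bind and hold back eIF4E, the 4E-BPs, differed in direction. Eif4ebp1, on chromosome 8 from 27260329 to 27276674, encodes 4E-BP1, a target of the kinase mTORC1 that is also known as a target gene of the stress factor ATF4. It had 52.8, 61.8 and 57.0 FPKM in KD and 133, 140 and 86.2 FPKM in PLKO. The KD libraries lay close together and below every control, but the gene stood just outside the threshold (log2 fold change -1.04, SE 0.23, limma adjusted p = 0.0503, and 0.011 with the block). Eif4ebp1 was called lower at a mean FPKM of at least 5, with log2(FPKM + 1), with median centring and with voom (adjusted p = 0.0495, 0.048, 0.0498 and 0.049). It was not called without the filter on low values, with quantile normalization or without the mean-variance trend (limma adjusted p = 0.051, 0.054 and 0.067). Eif4ebp2, the 4E-BP known for its role in neurons, lay higher, with 41.6, 44.8 and 45.6 FPKM in KD and 20.02, 30.5 and 28.7 FPKM in PLKO. Its log2 fold change was 0.76 (SE 0.22, limma adjusted p = 0.076), and it was the 1 factor called higher with the block (adjusted p = 0.031). Eif4ebp3 rested on 14 to 34 reads per library and had a log2 fold change of 0.67 (limma adjusted p = 0.25). It overlaps a longer gene on the same strand, with which it can share reads.

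Summed over the 3 genes, 4E-BP transcripts came to 97.5, 108 and 104 FPKM in KD 1, 2 and 3, against 155, 171 and 116 FPKM in PLKO 1, 2 and 3. Eif4ebp2 made up 42.6%, 41.4% and 43.8% of that sum in KD and 12.9%, 17.8% and 24.7% in PLKO, a clear gap between the groups. The ratio of this sum to Eif4e was 3.74, 4.61 and 4.11 in KD and 5.09, 4.17 and 3.24 in PLKO, and overlapped.

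**Figure D3:**
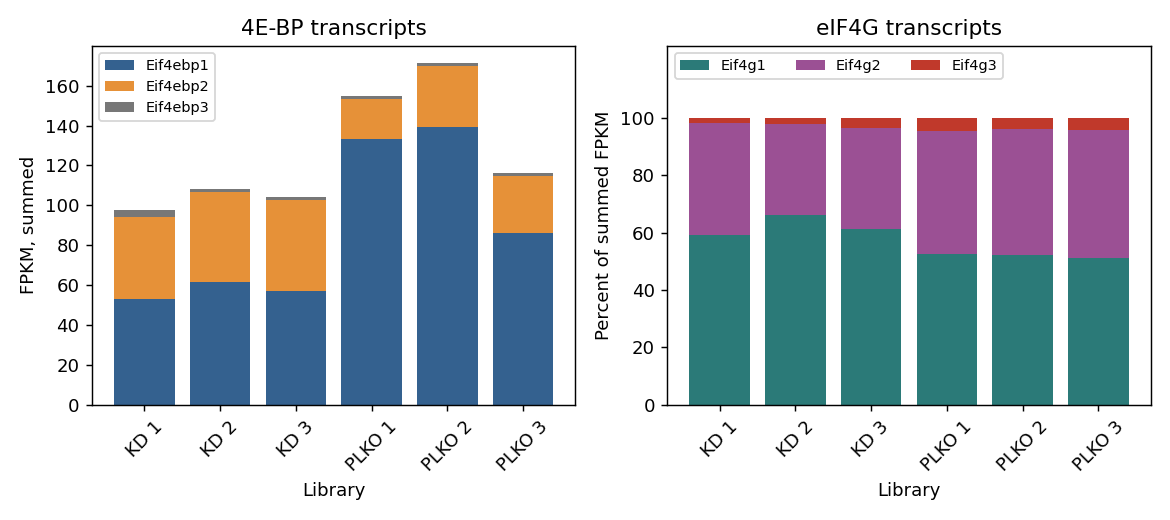
Left, FPKM of the 3 4E-BP genes stacked for each library, KD left of PLKO; right, share of each eIF4G gene in the summed FPKM of the 3. The Eif4ebp2 part is 42.6% of the 4E-BP bar in KD 1 and at most 24.7% in PLKO, and the thin Eif4g3 band is narrower in each KD library than in each PLKO library.

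Of the other eIF4 genes 0 were called over all genes by limma. Eif4e, the cap-binding protein, had 26.1, 23.5 and 25.4 FPKM in KD and 30.4, 41.1 and 35.9 FPKM in PLKO, lower in each KD library, with a log2 fold change of -0.51 (SE 0.20, limma adjusted p = 0.14). Its relative Eif4e2, which represses rather than promotes translation, lay higher in each KD library (0.38, limma adjusted p = 0.30). Eif4e3 had 2.34, 4.32 and 8.50 FPKM in KD and 7.82, 7.51 and 9.67 FPKM in PLKO, so KD 3 lay within the control range (-0.91, limma adjusted p = 0.19, and 0.042 with the block). This gene overlaps another annotated gene on its own strand. Eif4a1, the helicase with the highest level of the group, had 329, 347 and 290 FPKM in KD and 222, 371 and 298 FPKM in PLKO (0.15, limma adjusted p = 0.71). Its neighbour in function Eif4a2 had a log2 fold change of 0.39, and the helicase cofactors Eif4b and Eif4h of 0.55 and -0.16 (limma adjusted p from 0.19 to 0.60 for these 3). Eif4a3, a core protein of the exon junction complex that is left on spliced mRNA, had 109, 86.9 and 53.3 FPKM in KD and 42.8, 42.4 and 59.8 FPKM in PLKO. KD 3 again lay inside the control range, and the log2 fold change of 0.74 did not pass (SE 0.29, limma adjusted p = 0.14). Without both libraries numbered 3 it was 1.19, with a limma adjusted p of 0.0085. Eif4enif1, which carries eIF4E into the nucleus, had a log2 fold change of 0.15 (limma adjusted p = 0.69).

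**Figure D4:**
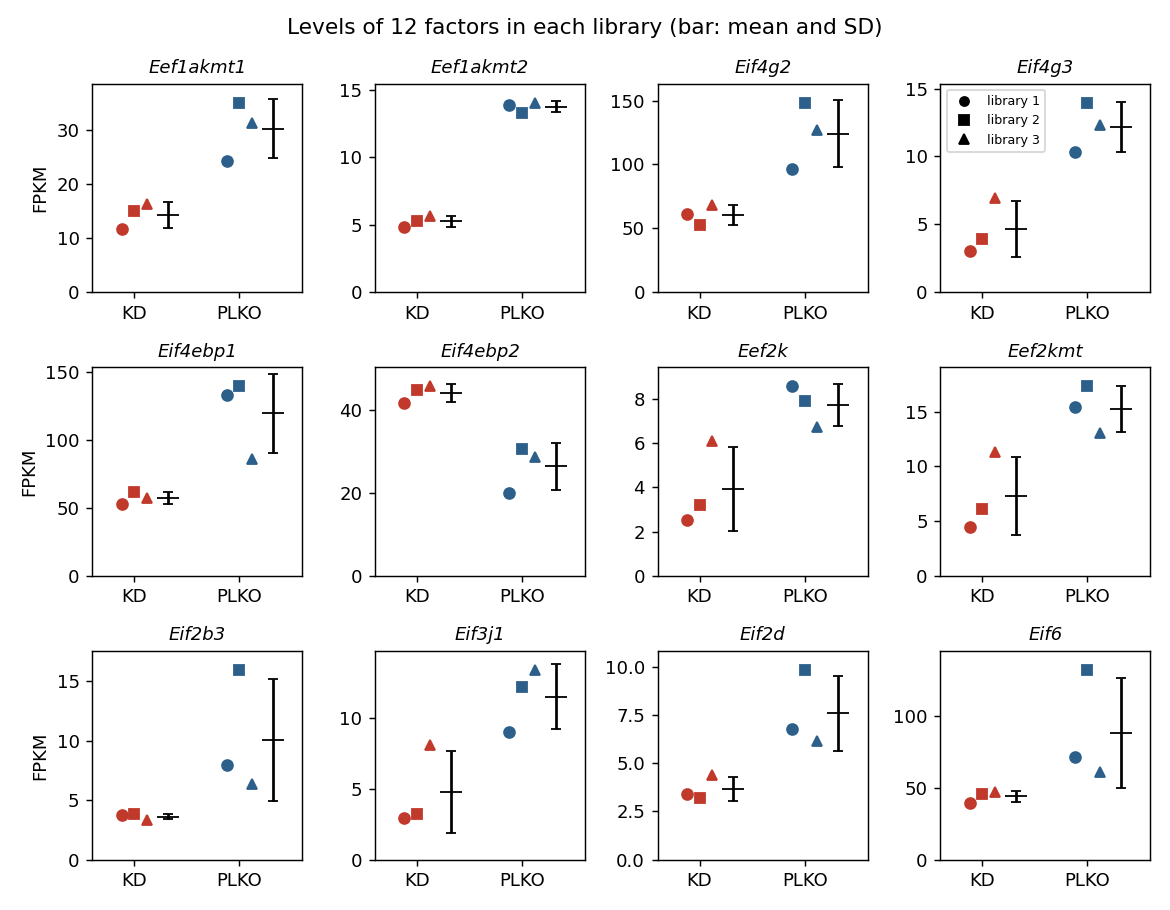
FPKM of 12 factors in each library, KD left of PLKO; marker shapes give the library number and bars the mean and SD of 3 libraries. In 11 panels every KD point lies below every PLKO point, and in the Eif4ebp2 panel every KD point lies above. The KD 3 triangle is the highest KD point in every panel except those of Eif4ebp1 and Eif2b3.

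The promoter of Eif4g3 is shown because it is 1 of the 2 called genes with an entry in the RefSeq promoter table (GRCm38.p6, 250 bases before to 50 after the start). The printed stretch is the 81 bases that end at the first transcribed base of this entry (in capitals), chr4:137993375-137993455 on the plus strand. That base lies inside the annotated span of the gene given above, not at its first base.
Eif4g3: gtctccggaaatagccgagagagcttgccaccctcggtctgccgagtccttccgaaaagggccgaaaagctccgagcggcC
MYC and its partner MAX bind the E-box CACGTG, which reads the same on both strands. It was found in the promoters of 13 of the 45 factors in the table (28.9%), beside 8.09% of all 27025 genes in the table and 12.2% of the 8273 tested genes in it. The full table window of Eif4g3, longer than the stretch printed, does not hold these letters. All 3 genes of the eIF4F complex with the highest level in their class hold it. It lies at positions -228 (Eif4e), -54 (Eif4g1) and -189 (Eif4a1) from an annotated start. For Eif4e this is the second of its annotated starts, and for Eif4e and Eif4g1 the start lies inside the annotated span of the gene. The windows lie at chr3:138527018-138527077 on the plus strand for Eif4e, chr16:20672646-20672705 on the plus strand for Eif4g1 and chr11:69672580-69672639 on the minus strand for Eif4a1. Capitals mark the E-box.
Eif4e: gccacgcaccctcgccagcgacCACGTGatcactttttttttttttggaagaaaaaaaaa
Eif4g1: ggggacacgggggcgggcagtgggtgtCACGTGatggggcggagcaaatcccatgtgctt
Eif4a1: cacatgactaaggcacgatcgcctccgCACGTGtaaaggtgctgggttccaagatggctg
The 12 tested factors with an E-box in the window had a median log2 fold change of -0.16 and the 32 tested factors without one of -0.13. Of these 12, 0 passed over all genes by limma and 2 with the block. Of the 32 without an E-box 8 passed with the block, beside 19.3% of all tested genes. Myc itself had 9.88, 12.2 and 30.6 FPKM in KD and 32.01, 87.5 and 19.1 FPKM in PLKO, with KD 3 above PLKO 3 (log2 fold change -1.29, limma adjusted p = 0.18, and 0.067 with the block). Without both libraries numbered 3 the log2 fold change of Myc was -2.27 (limma adjusted p = 0.0067), in a fit that called 16% of all tested genes lower. Whether the Myc values include reads of the transgene was not tested. The ATF4-type element TGATGNAA, searched on both strands, was in the promoters of Eef2k and Eif2s3x, 4.44% of the 45 factors, in 4.51% of all genes in the table and in 2.59% of the tested genes in it. The table has no entry for Eif4ebp1, Eif4g2 or Eef1akmt1.

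The elongation factors split by role. The 5 core factors had log2 fold changes from -0.26 to 0.26, none called with or without the block (limma adjusted p from 0.40 to 0.96, and 0 at an unadjusted p under 0.05). Eef1a1, which delivers aminoacyl-tRNAs and had the highest level of all 61 genes, had 4014, 4364 and 4368 FPKM in KD and 3628, 4351 and 5064 FPKM in PLKO. Its log2 fold change of -0.02 had a 95% interval from -0.50 to 0.46 (limma adjusted p = 0.96). Eef2, the translocase, had 1244, 1520 and 1576 FPKM in KD and 1155, 965 and 1562 FPKM in PLKO, with overlap (log2 fold change 0.26, limma adjusted p = 0.50). The exchange factor genes Eef1b2, Eef1d and Eef1g stood at -0.26, 0.04 and 0.24 on the same scale.

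The enzymes that modify eEF1A and eEF2 lay lower in KD. All 5 that were tested had KD values below all PLKO values and log2 fold changes from -1.39 to -1.03, with a median of -1.08. Over all tested genes 18.8% were lower in KD without overlap. Of these 5 enzymes, 2 were called lower over all genes and 5 with the block, beside 1.79% and 11.1% of all tested genes. Eef1akmt2, a lysine methyltransferase of eEF1A (role known from human), on chromosome 7 from 132827457 to 132852673, had 4.798, 5.26 and 5.66 FPKM in KD and 13.9, 13.3 and 14.0 FPKM in PLKO. Libraries within a group lay close together, and Eef1akmt2 fell by 1.39 (SE 0.20, limma adjusted p = 0.029, and 0.0027 with the block). Both adjusted p-values were the lowest among the 59 factors. Eef1akmt2 lies inside the annotated span of Fgfr2 on the same strand. Eef1akmt1, a second eEF1A methyltransferase on chromosome 14 from 57549597 to 57571612, had 11.7, 15.1 and 16.3 FPKM in KD and 24.3, 35.1 and 31.4 FPKM in PLKO. It fell by 1.08 (SE 0.23, limma adjusted p = 0.047, and 0.0070 with the block), a call that was lost with median centring, without the mean-variance trend and with voom (adjusted p = 0.052, 0.059 and 0.060).

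Eef2kmt, a lysine methyltransferase of eEF2 in human and yeast, had 4.42, 6.10 and 11.3 FPKM in KD and 15.4, 17.3 and 13.04 FPKM in PLKO (log2 fold change -1.17, SE 0.33, limma adjusted p = 0.074, and 0.017 with the block). Its KD 3 value was the highest KD value and lay nearer to PLKO 3 than to KD 1. Eef2k, the kinase that inactivates eEF2 by phosphorylation, had 2.53, 3.19 and 6.09 FPKM in KD and 8.55, 7.88 and 6.70 FPKM in PLKO. KD 3 lay just below PLKO 3, and the log2 fold change was -1.07 (SE 0.33, limma adjusted p = 0.090, and 0.027 with the block). Eef1akmt4, another eEF1A methyltransferase gene, had 2.44, 5.12 and 5.02 FPKM in KD and 8.18, 10.9 and 5.95 FPKM in PLKO (-1.03, SE 0.35, limma adjusted p = 0.11, and 0.026 with the block). It overlaps a longer gene on its own strand, so part of its reads can belong to that gene. Eef1akmt3 was under the level tested, with 6, 17 and 33 reads in KD libraries 1 to 3, at 0.187, 0.439 and 0.736 FPKM, and with 0.674, 1.08 and 0.718 FPKM in PLKO.

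For Eef1akmt2, the called gene with the lowest adjusted p, 81 bases are printed, at chr7:132852647-132852727 on the minus strand. The stretch ends at the first transcribed base of its promoter entry (in capitals), inside the annotated span of the gene. Below it stand 3 E-box windows of the eEF group, with the E-box in capitals, for both modifying enzymes that hold one and for the translocase gene Eef2. These lie at chr7:120842773-120842832 for Eef2k, chr16:20611482-20611541 for Eef1akmt4 and chr10:81176561-81176620 for Eef2, all on the plus strand, with the E-box at positions -31, -92 and -43.
Eef1akmt2: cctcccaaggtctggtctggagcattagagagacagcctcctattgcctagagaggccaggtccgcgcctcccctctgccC
Eef2k: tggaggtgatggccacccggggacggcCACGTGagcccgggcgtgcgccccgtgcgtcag
Eef1akmt4: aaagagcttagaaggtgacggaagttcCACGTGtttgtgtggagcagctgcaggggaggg
Eef2: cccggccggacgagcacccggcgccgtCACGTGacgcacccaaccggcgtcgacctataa
Eef2k and Eef1akmt4, called lower with the block, and Eef2, which was not called, thus hold the same letters within 100 bases before the start.

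Of the 12 other initiation factors 11 were tested, 10 of them with a log2 fold change below 0 and a median of -0.29. None was called over all genes (3 at an unadjusted limma p under 0.05, beside 2977 of all 10770 tested genes). Eif1, Eif2d and Eif6 were called lower with the block. Eif2d, which acts in reinitiation and in recycling of small subunits, had 3.39, 3.21 and 4.37 FPKM in KD and 6.78, 9.82 and 6.14 FPKM in PLKO. The groups did not overlap (log2 fold change -1.03, SE 0.26, limma adjusted p = 0.062, and 0.019 with the block). Eif6, which keeps large ribosomal subunits from joining small ones, had 39.6, 45.7 and 47.0 FPKM in KD and 71.3, 132 and 61.0 FPKM in PLKO, with PLKO 2 far above the other controls. Its log2 fold change was -0.92 (SE 0.29, limma adjusted p = 0.091, and 0.025 with the block). Eif1, which guards the choice of the start codon, had 212, 221 and 290 FPKM in KD and 290, 532 and 416 FPKM in PLKO, with KD 3 and PLKO 1 nearly equal (-0.75, limma adjusted p = 0.11, and 0.043 with the block).

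Eif5a, the hypusine-bearing factor that eases elongation and termination, had 476, 451 and 330 FPKM in KD and 346, 680 and 413 FPKM in PLKO, with wide overlap (log2 fold change -0.15, limma adjusted p = 0.75). Eif2a, an alternative initiator tRNA carrier, was the 1 tested member of this set above 0, with 21.6, 23.8 and 29.8 FPKM in KD and 18.5, 12.6 and 27.5 FPKM in PLKO (0.41, limma adjusted p = 0.38). Eif5, the GTPase activator of eIF2, had a log2 fold change of -0.08, and Eif5b, which joins the subunits, of -0.29. Eif1a and Eif1ax are near copies that can share reads, as are Eif1b and Eif1. The log2 fold changes were -0.52 for Eif1a, -0.33 for Eif1ax and -0.23 for Eif1b (limma adjusted p from 0.24 to 0.49). Eif1ad, an eIF1A domain protein, had -0.26 (limma adjusted p = 0.63). Eif5a2, the second eIF5A gene, was under the level tested, at 0.353 to 0.989 FPKM in KD and 0.288 to 0.452 FPKM in PLKO on 21 to 75 reads per library.

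The factors called lower with the block were mostly those with low levels. Split at a mean of 20 FPKM over all 6 libraries, a limit chosen after the values were seen, 10 of 15 tested factors below it and 6 of 44 above it were called lower with the block. Over all tested genes the same shares were 11.6% below and 9.86% above the limit. The median log2 fold change was -1.03 for the 15 factors below it, and -0.05 for all tested genes there. For the 44 factors above it the median was -0.07. Across the 59 factors, log2 mean FPKM and log2 fold change had a Pearson correlation of 0.39 and a Spearman correlation of 0.40, beside -0.002 and 0.03 across all 10770 tested genes. Genes are not independent replicates and share the 6 libraries, so these are descriptions.

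**Figure D5:**
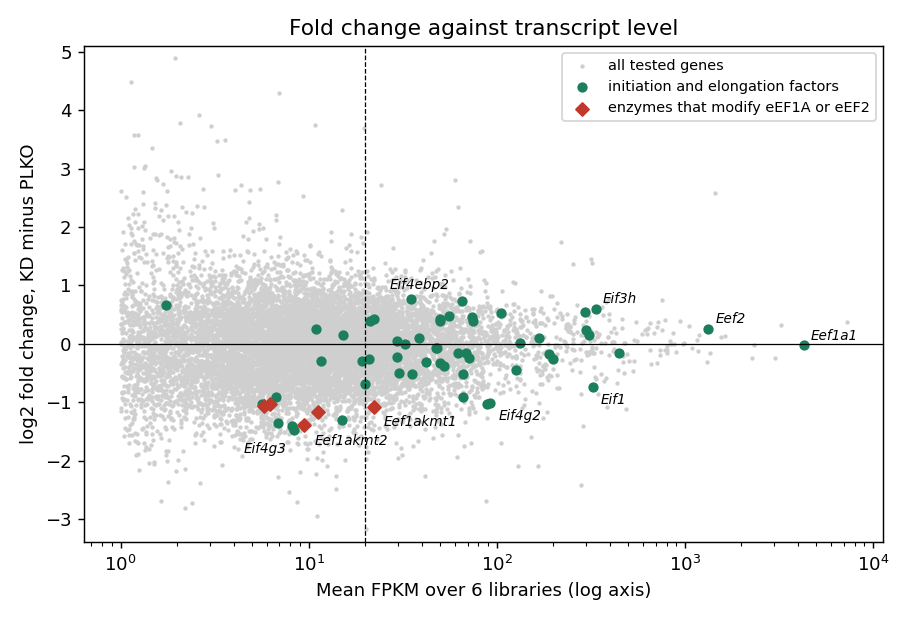
Log2 fold change (KD minus PLKO) against mean FPKM over 6 libraries on a log axis, for all 10770 tested genes in grey and the 59 tested factors in colour (red diamonds, enzymes that modify eEF1A or eEF2), with a dashed line at 20 FPKM. Factors to the right of the line lie mostly within 1 log2 unit of 0, whereas many of the 15 to the left lie below -1.

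KD 3 lay nearest to the controls. In 12 of the 16 factors called lower with the block it was the KD library nearest to the PLKO mean, as it was in 72.0% of the 1198 genes called lower with the block. Sf3b3 stood at 51.8% of the PLKO mean in KD 3, against 38.4% and 35.6% in KD 1 and KD 2. Without both libraries numbered 3, 14 factors were called lower and 5 higher, in a fit that called 16% of all tested genes lower and 11.9% higher (27.9% in all).

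Further proteins of the translation cycle were followed in 8 lists of 52 genes, of which 50 were listed and tested. Of the 50 genes 2 were called lower, beside 1.79% of all tested genes, and with the block 12 were called lower and 2 higher, beside 11.1% and 8.19%. Dnajc24 and Dph6 were the 2 called, both in the synthesis of diphthamide, a modified histidine of eEF2 that diphtheria toxin attacks. Dph6 had 2.23, 2.59 and 3.67 FPKM in KD and 6.77, 10.4 and 5.85 FPKM in PLKO, and fell by 1.43 (SE 0.30, limma adjusted p = 0.047). Dnajc24 had 4.25, 4.15 and 5.41 FPKM in KD and 10.2, 12.8 and 8.49 FPKM in PLKO, and fell by 1.18 (SE 0.24, limma adjusted p = 0.044). The Dnajc24 call, on 88 to 291 reads per library, was lost with voom (adjusted p = 0.064), and that of Dph6 was kept (0.049). With 1 library left out, the limma adjusted p of both genes rose to as much as 0.20. In both the groups did not overlap. Of the 7 diphthamide genes 6 had a log2 fold change below 0, with a median of -0.72, and Dph3 and Dph5 were also called lower with the block (log2 fold changes -0.71 and -1.38, block adjusted p = 0.045 and 0.011 by limma).

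Of 11 mitochondrial translation factors 9 lay below 0 in log2 fold change, and their median was -0.66. None was called over all genes (6 at an unadjusted limma p under 0.05, beside 2977 of all 10770 tested genes). With the block 4 were called lower, where 11.1% of all tested genes were. These were Mtif2 (mitochondrial initiation), Tsfm and Gfm2 (elongation and recycling) and Mtrf1l (release), with log2 fold changes of -0.91, -0.89, -1.11 and -0.88. The hypusine enzymes of eIF5A differed in direction, Dhps at 10.4 ± 1.22 FPKM in KD and 19.2 ± 4.14 FPKM in PLKO, and Dohh at 12.9 ± 4.88 FPKM in KD and 6.70 ± 0.550 FPKM in PLKO (SD, n = 3 each). Dhps, at -0.87 on the log2 scale, and Dohh, at 0.87, were called with the block only (adjusted p of 0.022 and 0.035 by limma, against 0.064 and 0.12 without the block). A list of 11 genes was drawn up around the mTORC1 and MNK input to eIF4. In it Rps6kb1 (S6 kinase) and Mknk1 (an eIF4E kinase) were called lower with the block (log2 fold changes -0.74 and -1.04). Larp4, placed in this list but a poly(A) and mRNA-binding protein, was called higher with the block (0.78). Pabpc4, a poly(A)-binding protein, had 29.7 ± 13.4 FPKM in KD and 53.1 ± 7.28 FPKM in PLKO (log2 fold change -0.92, limma adjusted p = 0.098, and 0.021 with the block). No gene of release and recycling, ribosome rescue or reinitiation was called with or without the block. The lowest limma adjusted p in these 3 lists were 0.15 for Etf1, 0.31 for Nemf and 0.20 for Denr (log2 fold changes 0.57, 0.34 and -0.56).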

How the data were processed

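The authors deposited 1 table of log2 FPKM values for 11866 genes in 6 libraries. The word FPKM stands in the labels, and the log2 scale was read from the values. GRCm38 and FastQC 0.11.7 are named in the submitters' processing notes. For the aligner, counter, use of strand and gene filter, nothing is given in the sources used here. A prior with a mean of 2 reads had been added before the logarithm, which understates changes of low genes. Steps above this prior gave whole reads within 0.01 reads for 100% of the genes, 10963 of them with GENCODE M21 exonic lengths and 903 with a length found by scanning. These reads serve as depth and in added alternatives.

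The test was limma 3.58.1 (R 4.3.3) on the deposited log2 values with its trend option, KD minus PLKO, for the 10770 genes whose mean reached 1 FPKM, with 4 residual degrees of freedom. Benjamini-Hochberg adjusted p-values under 0.05 over all tested genes were called. FPKM are powers of 2 of the deposited values. Library deviations from group means correlated at 0.18, 0.29 and 0.50 for equal numbers, all above the limit of 0.1. The numbers therefore served as a block in an alternative fit, whereas the main test had no replicate term. No label states this pairing, and KD 1 with PLKO 2 and KD 2 with PLKO 1 reached 0.30 and 0.27. For libraries 1 and 2 these values do not single out the pairing by number, and the calls with the block rest on it. The pairing was read from the same values that the block fit tests. Deviations within a group sum to 0, so the correlations for equal numbers are not independent of each other. The block fit also has fewer residual degrees of freedom than the main test. Factors, lists and alternatives were chosen with earlier results of these data known. Values in every library are given for each factor called with or without the block and, per complex, for the highest and lowest fold change, the lowest adjusted p and the highest level, 27 factors in all. Scripts were tested on simulated data.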

Additional observations from a re-analysis of the deposited data

How the results depend on the processing

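The count of factors called was 4 in the fit as reported, 0 to 12 when 1 library was left out (0 to 1744 over all genes, against 314), and 0 without KD 1, KD 2, PLKO 1 or PLKO 2. With the replicate block it was 17 (2080 over all genes), without both libraries numbered 3 it was 19 (3009), with array weights 25 (3599), with median centring 2 and without the mean-variance trend 1 (151). Of the 4 calls, Eef1akmt2 alone remained with median centring and without the trend. Eif4g3 was also lost without the filter on low values and with quantile normalization (adjusted p = 0.05003 and 0.0503), Eef1akmt1 with voom, and Eef1akmt1 and Eif4g2 without PLKO 3 (0.0503 and 0.0529). Array weights were taken gene by gene and gave KD 2 a weight of 5.63 and KD 3 one of 0.371. The log2 fold change of Sf3b3 ran from -1.43 to -1.15 with 1 library left out. The eEF median was -1.03 without the filter on low values, which adds Eef1akmt3. The eIF4 median, 0.15 as reported, was -0.0087 at a mean FPKM of at least 5, 0.28 with array weights and -0.049 to 0.22 with 1 library left out. With 1 library left out the eIF3 median ran from -0.10 to 0.24, below 0 without KD 1, KD 2, PLKO 1 or PLKO 3, and the eIF2 median from -0.072 to 0.093. Without PLKO 2 the eIF2B median was -0.17, against -0.37 as reported, and that of the other initiation factors -0.15, against -0.29. Eef1a1, near 0, changed sign with median centring (0.031), array weights (0.086) and without both libraries numbered 3 (0.075), and ran from -0.14 to 0.10 with 1 library left out. Eif5a did so with array weights (0.10) and ran from -0.36 to 0.13 with 1 library left out, and Eif4a1 from -0.049 to 0.32. The cause of these shifts was not tested. Voom on the recovered reads, chosen after seeing the data, called 4 factors, 3 of them shared, or 3 with total library sizes. No scaling tried moved the median of all genes by 0.1 or more. Reads per library of 6 to 75 limit Eef1akmt3, Eif5a2, Eif4ebp3 and Eif3s6.ps2.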
